A study of Mus musculus with 8 samples.

Results

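The genes described here are the 35 mouse genes of the Fbxo family whose symbol is Fbxo followed by a number and that have a protein-coding transcript in the deposited tables, out of 21989 genes with such a transcript and 48440 genes in all. Fbxo5 and Fbxo43 also match that pattern of symbols and are not described. RNA was measured by sequencing in 8 libraries of 4 groups of 2. MII are mouse oocytes arrested at metaphase of the second meiotic division, and GV are oocytes of the germinal vesicle stage, before the divisions resume. EpiC are epiblast cells made in vitro from embryonic stem cells, and ESC are the embryonic stem cells, pluripotent cells of the early embryo kept in culture. The females were primed with 5 units of PMSG, a gonadotropin, 48 h ahead of a further injection whose content the labels do not name, and GV oocytes were held in medium with 2 µM milrinone, which keeps meiosis arrested. The MII samples carry the same growth text as GV, with no maturation step. ESC grew in Knockout DMEM with 15% serum, LIF and the inhibitors PD0325901 and CHIR99021, and for EpiC the cells were plated for 24 h and then kept about 56 h without LIF and inhibitors. The labels used here give no strain, age or number of oocytes per library. The labels do not tie replicates to separate animals or cultures, and a p-value here covers the spread between these particular libraries only, which may be technical.

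F-box proteins are the part of SCF ubiquitin ligases that picks the substrate. The F-box binds the adaptor SKP1, which sits on the cullin CUL1 with the RING protein RBX1, and the rest of the F-box protein holds the substrate, which is then marked with ubiquitin, often for destruction by the proteasome. The letter o stands for other: these members carry neither the WD40 repeats of the Fbxw group nor the leucine-rich repeats of the Fbxl group. Oocytes mature without new transcription, on stored mRNA and protein, and ordered protein destruction drives their meiotic divisions.

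The mRNA levels of the whole group set the scene. Levels are in TPM, a share of all listed transcripts after division by length, so they can be compared between genes, and pairs of values are replicate 1 and then replicate 2. The 35 genes summed to 2226 and 2125 TPM in MII, 1639.8 and 1426 in GV, 472 and 379 in EpiC, and 873 and 837 in ESC. Every oocyte library held a larger share of Fbxo mRNA than the cultured libraries, and EpiC held the least. The leading gene differed in each group: Fbxo8 in MII (730.4 and 543 TPM), Fbxo34 in GV (324 and 326 TPM), Fbxo22 in EpiC (53.2 and 37.3 TPM) and Fbxo15 in ESC (337 and 333 TPM). Fbxo15 alone made up 38.6% and 39.8% of the Fbxo total of the ESC libraries. At least 5 TPM was reached by 15 of the 35 genes in each MII library, 23 in each GV library, 22 and 21 in EpiC and 23 and 22 in ESC. Of all genes with a protein-coding transcript, that level was reached by 26.7% and 27.8% in MII and 39.5% and 38.5% in GV. In EpiC it was 42.7% and 41.7%, and in ESC 42.2% and 43.3%. By mean level, 9 genes were highest in MII, 12 in GV, 3 in EpiC and 11 in ESC.

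**Figure D1:**
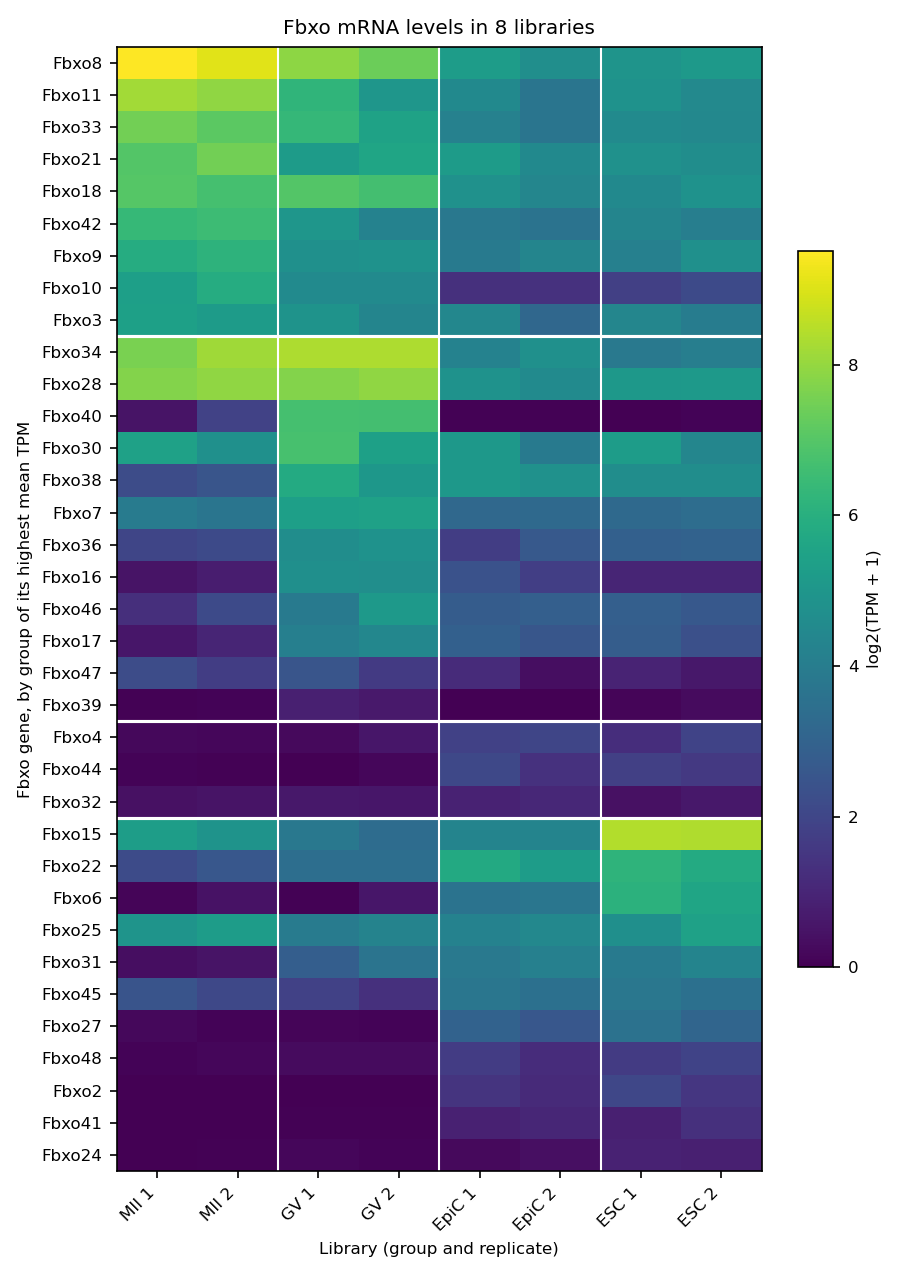
Level of each of the 35 Fbxo genes, as log2(TPM + 1), in the 8 libraries, with genes down the page ordered by the group of their highest mean TPM (white lines separate those groups and the libraries of each group). The MII block is led by Fbxo8, the GV block by Fbxo34 and Fbxo28, and Fbxo15 stands out in ESC.

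The libraries carried the markers of their labels. The 5 oocyte genes, Zp3, Gdf9, Bmp15, H1foo and Oosp1, summed to between 18059 and 34294 TPM in the oocyte libraries and to between 1.43 and 10.9 TPM in the cultured cells. Naive stem cell markers summed to 249 and 128 TPM in EpiC against 1935 and 1545 TPM in ESC, and epiblast markers to 607 and 137 TPM in EpiC against 53.2 and 28 TPM in ESC. In the oocytes the naive markers summed to 29.8 and 33.0 TPM in MII and to 151 and 196 TPM in GV. Esrrb made up most of the GV sum, with 146 and 190 TPM. The 10 cumulus and granulosa markers summed to 49.1 and 48.1 TPM in MII and to 31.7 and 182 TPM in GV, and the part of such cells in the results was not tested. Cyp19a1 made up most of that sum in MII, with 47.4 and 44.5 TPM, and Inha in GV replicate 2, with 105 TPM against 4.66 in GV replicate 1. Of the 10 markers, 3 and 0 were at 0 in MII (Amh, Foxl2 and Fshr in replicate 1) and 2 and 0 in GV (Foxl2 and Ptx3 in replicate 1). Total estimated counts ran from 47463546 (EpiC replicate 1) to 196788239 (MII replicate 2). Replicate 2 of every group stood apart in Gm42418, a gene model known to collect ribosomal RNA reads. It took 22.7% of the counts in EpiC, 14.7% in ESC, 3.03% in MII and 1.66% in GV, against at most 0.151% in any replicate 1. Replicate 2 also had more total counts than replicate 1 in each group.

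The promoter of Fbxo40, a gene that was high in GV and at 2.64 TPM or less in every other library, is shown beside that of Fbxo34, the leading Fbxo gene of GV oocytes, because the 2 differ in CG dinucleotides, the sites of DNA methylation. Windows of 250 bases before to 50 after the start came from RefSeq (GRCm38.p6), where 26 of the 35 genes matched, one of them, Fbxo18, under its current symbol Fbh1. Capitals mark CG. The Fbxo40 window lies on chromosome 16 (chr16:36990418-36990717, minus strand) and holds 3 CG, and the Fbxo34 window lies on chromosome 14 (chr14:47472311-47472610, plus strand) and holds 25.
Fbxo40: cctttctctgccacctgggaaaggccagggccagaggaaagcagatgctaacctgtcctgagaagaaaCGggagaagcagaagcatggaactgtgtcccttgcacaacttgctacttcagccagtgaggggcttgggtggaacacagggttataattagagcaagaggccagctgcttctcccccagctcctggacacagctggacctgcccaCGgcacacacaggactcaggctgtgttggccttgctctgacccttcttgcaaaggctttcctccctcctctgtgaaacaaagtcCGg
Fbxo34: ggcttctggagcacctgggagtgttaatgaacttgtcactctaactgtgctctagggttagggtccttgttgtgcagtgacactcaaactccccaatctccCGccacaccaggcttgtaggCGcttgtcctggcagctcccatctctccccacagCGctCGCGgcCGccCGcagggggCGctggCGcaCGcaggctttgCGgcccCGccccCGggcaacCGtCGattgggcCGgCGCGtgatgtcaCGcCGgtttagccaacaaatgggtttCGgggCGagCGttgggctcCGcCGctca
The median over all windows of the table was 7 CG, and 56.5% of them held fewer than 10. Of the 26 Fbxo genes, 22 had 10 or more CG in every window and 2, Fbxo40 and Fbxo4, had fewer than 10 in every window. The 2 windows of Fbxo40 held 2 and 3 CG, the fewest of any of the 26, while the window of Fbxo30 held 47. A count of letters in a window is a description and says nothing of methylation, which was not measured. Whether GV oocytes start transcription at the windows shown was not examined. That of Fbxo34 has its start at 47472561, inside a locus that begins at 47450421.

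In MII against GV, 13 of the 35 genes rose and 7 fell, while 15 did not pass edgeR's quasi-likelihood test at a Benjamini-Hochberg adjusted p of 0.05. Of all 25045 genes tested, 17.4% were higher and 22.2% lower in MII. These are log2 fold changes of TMM-scaled counts, each ± its approximate SE, and TMM sets a trimmed and weighted mean of the gene ratios to no change, so that a direction is relative to that mean and is not an amount per cell. Fbxo28, with nearly equal TPM in MII and GV, has a log2 fold change of 1.36 on it. On that scale the median log2 fold change was 0.76 over the 35 genes and −0.53 over all genes tested. On log2(TPM + 1) the log2 fold change of a gene differed from that on counts by a median of −0.61 over all genes tested. The median log2 fold change over all genes was −0.18 there. On the TPM scale 9 of the 35 genes were higher and 10 lower. Of all 25045 genes tested, 2408 were higher and 8164 lower on it. Of the 13 that rose, 9 were also higher on the TPM scale and 4 (Fbxo3, Fbxo18, Fbxo28 and Fbxo45) did not pass there, and all 7 that fell were lower on both. A pool of oocytes is a bulk sample, in which fewer cells of a type and less RNA per cell cannot be told apart.

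The most abundant of the 13 genes that rose was Fbxo8 (chromosome 8, 56551090 to 56593939 on GRCm38), whose protein pairs the F-box with a Sec7 domain of the kind that acts on ARF GTPases. Fbxo8 had 730.4 and 543 TPM in the MII libraries, 239.5 and 166 in GV, 37.3 and 24.9 in EpiC and 29.7 and 33.4 in ESC. Both MII libraries exceeded both GV libraries, and every oocyte library exceeded all cultured libraries. The log2 fold change was 2.79 ± 0.36 (adjusted p = 0.000599) for MII against GV, 2.89 ± 0.36 (adjusted p = 0.000183) for GV against ESC and 5.65 ± 0.41 (adjusted p = 8.89e-06) for MII against EpiC.

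Fbxo11 (chromosome 17, 87990859 to 88065291), which targets the repressor BCL6 in B cells, had the highest upward fold change in MII against GV. Fbxo11 had 292 and 244 TPM in the MII libraries, 73.5 and 31.1 in GV, 21.6 and 12.1 in EpiC and 27.6 and 21.5 in ESC. The MII values lay far above the rest, and the 2 GV libraries lay apart from each other. It rose by 3.54 ± 0.49 (adjusted p = 0.000704) in MII against GV and by 5.50 ± 0.53 (adjusted p = 3.19e-05) in MII against EpiC. For GV against ESC it gave 1.42 ± 0.45 (adjusted p = 0.0223), a call lost without GV replicate 1 (1.0, adjusted p = 0.0809), without ESC replicate 1 (adjusted p = 0.0536) or 2 (adjusted p = 0.122), and on log2(TPM + 1) (0.95). Its locus overlaps Msh6 on the opposite strand.

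The next 3 genes made a similar step. Fbxo21 had 125 and 181 TPM in the MII libraries, 36.7 and 46.8 in GV, 35.9 and 21.9 in EpiC and 27.2 and 24.6 in ESC. Fbxo42 had 81.3 and 90.2 TPM in the MII libraries, 31 and 17.4 in GV, 13 and 11.4 in EpiC and 19.2 and 15.7 in ESC. Fbxo33 had 177 and 138 TPM in the MII libraries, 80.5 and 43.8 in GV, 17 and 11.9 in EpiC and 22.2 and 20.7 in ESC. For each of them the MII libraries lay above all other libraries. FBXO42 is known to bind p53, FBXO33 the Y-box protein YB-1, and FBXO21 the growth inhibitor EID1, all from work on human proteins. The MII against GV log2 fold changes were 3.09 ± 0.37 (adjusted p = 0.000549) for Fbxo21, 3.0 ± 0.38 (adjusted p = 0.000584) for Fbxo42 and 2.55 ± 0.41 (adjusted p = 0.00132) for Fbxo33. Against EpiC the MII values were 4.0 for Fbxo21, 4.31 ± 0.40 (adjusted p = 2.57e-05) for Fbxo42 and 4.55 ± 0.45 (adjusted p = 3.66e-05) for Fbxo33. The GV against ESC difference of Fbxo21, 1.15, was lost without ESC replicate 1 (adjusted p = 0.0837), ESC replicate 2 (0.0974) or GV replicate 2 (0.0699), and on log2(TPM + 1) (0.66). That of Fbxo33, 1.40, was lost without ESC replicate 2 (adjusted p = 0.0921), and Fbxo42 did not pass there (log2 fold change 0.83 ± 0.35, adjusted p = 0.0681).

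Fbxo10 had 40.8 and 58.2 TPM in the MII libraries, 22.5 and 22.4 in GV, 1.51 and 1.59 in EpiC and 2.48 and 3.43 in ESC. The protein marks the survival factor BCL2 in lymphocytes. Both oocyte groups lay above both cultured groups, and it rose by 2.31 ± 0.37 (adjusted p = 0.00125) in MII against GV, 3.27 ± 0.39 (adjusted p = 0.000135) in GV against ESC and 6.47 ± 0.45 (adjusted p = 7.88e-06) in MII against EpiC. Its MII against EpiC fold change was the highest among the 18 genes that were higher in MII. Fbxo9 had 58.2 and 69.8 TPM in the MII libraries, 26.6 and 27.9 in GV, 14.1 and 19.1 in EpiC and 16.5 and 26.5 in ESC. Fbxo9, which acts on the TEL2 and TTI1 partners of mTOR in human cells, rose by 2.42 ± 0.36 (adjusted p = 0.000886) in MII against GV and 3.83 in MII against EpiC. Its GV against ESC value, 1.08, was lost with a length offset (0.62, adjusted p = 0.204), on log2(TPM + 1) (0.36), and without ESC replicate 1 (adjusted p = 0.164), ESC replicate 2 (0.0505) or GV replicate 2 (0.0738).

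Fbxo25 and Fbxo3 rose by less. Fbxo25 had 29.7 and 37.6 TPM in the MII libraries, 14.5 and 18.1 in GV, 17.5 and 20.8 in EpiC and 25.4 and 42.2 in ESC. Fbxo25, a relative of the muscle ligase Fbxo32, gave 2.22 ± 0.39 (adjusted p = 0.00192) in MII against GV and 2.52 in MII against EpiC, which was 0.78 on log2(TPM + 1) and no longer passed (adjusted p = 0.0710). For GV against ESC it did not pass on counts (−0.49 ± 0.38, adjusted p = 0.274), while on log2(TPM + 1) it was lower in GV (−0.97, adjusted p = 0.0353). Fbxo3 had 41 and 36.8 TPM in the MII libraries, 28.8 and 19.1 in GV, 20.1 and 8.13 in EpiC and 19.5 and 15.1 in ESC. The MII libraries were highest, but Fbxo3 with 1.61 ± 0.39 (adjusted p = 0.00942) lost its call on log2(TPM + 1) (0.70), with coding transcripts alone (0.84, adjusted p = 0.0711), without GV replicate 2 (1.37, adjusted p = 0.0663) and without MII replicate 1 (1.48, adjusted p = 0.0504).

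**Figure D2:**
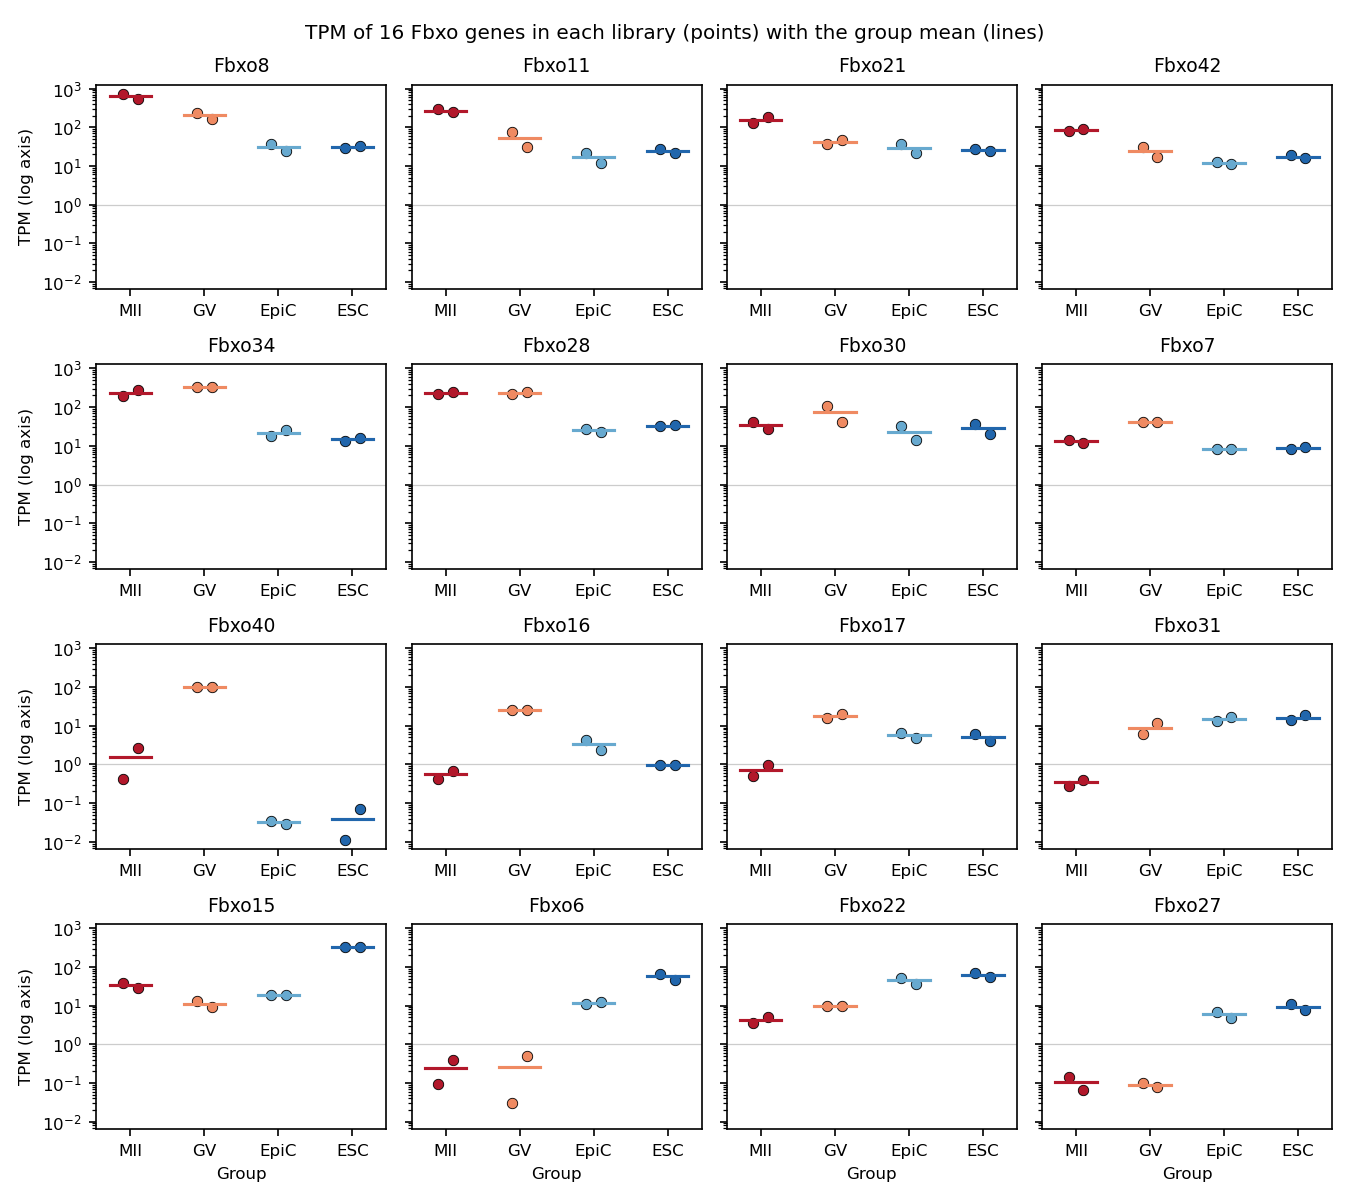
TPM on a log axis of 16 Fbxo genes in each library (points, 2 per group) with the group mean (lines), and the groups MII, GV, EpiC and ESC from left to right. Fbxo8, Fbxo11, Fbxo21 and Fbxo42 peak in MII, Fbxo40, Fbxo16 and Fbxo17 in GV, and Fbxo15, Fbxo6, Fbxo22 and Fbxo27 lie higher in ESC than in oocytes.

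Stored oocyte mRNAs are often activated through the cytoplasmic polyadenylation element, a short U-rich motif near the poly(A) signal. The last 100 bases of the leading coding transcript (GENCODE M21) were searched on the sense strand for TTTTAT or TTTTAAT, for 32 of the 35 genes. The motif stood in 3 of 13 genes that rose in MII (Fbxo33, Fbxo25 and Fbxo18), in 0 of 7 that fell and in 4 of 12 that were not called, against 18.3% of the 15109 genes searched in the same way. The sites of the 3 genes that rose are shown, with the motif in capitals, and the poly(A) signal AATAAA or ATTAAA too where the stretch holds it. Between the end of the stretch and the transcript end lie 8 bases for Fbxo33, 45 for Fbxo25 and 34 for Fbxo18.
Fbxo33: attcTTTTAATcaatgAATAAAgcatta
Fbxo25: gctgTTTTATtttaaaaataatgcatgt
Fbxo18: aaacTTTTATtacaaggtttcaATTAAA
Over the 32 genes the share was 21.9%, near that of all genes. A match is not a site of binding, and the annotated end need not be the end used in oocytes. Whether poly(A) RNA was selected for the libraries is not given, and its part in the changes was not tested.

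Another 7 genes fell between GV and MII, and none of them reached a mean of 5 TPM in MII although all did in GV. The most abundant of them in GV was Fbxo40 (chromosome 16, 36963460 to 36990467), known as a muscle gene whose protein targets the insulin receptor substrate IRS1. Fbxo40 had 0.421 and 2.64 TPM in the MII libraries, 103 and 101 in GV, 0.0355 and 0.0284 in EpiC and 0.0112 and 0.0684 in ESC. It was found at 103 and 101 TPM in GV and near 0 in the cultured cells, with 6 and 13 estimated counts in EpiC and 2 and 18 in ESC. Fbxo40 fell by 4.14 ± 0.58 (adjusted p = 0.000729) in MII against GV. The GV against ESC value, 10.69 ± 0.79 (adjusted p = 1.43e-05), and the MII against EpiC value, 6.07 ± 0.67 (adjusted p = 6.33e-05), rest on those few counts in the cultured cells. Of the TPM of Fbxo40 in GV, 23 and 15.2 percent belonged to its coding transcript.

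Fbxo16 had 0.418 and 0.693 TPM in the MII libraries, 25.7 and 24.9 in GV, 4.28 and 2.38 in EpiC and 0.966 and 0.972 in ESC. Fbxo17 had 0.488 and 0.971 TPM in the MII libraries, 16.2 and 20.4 in GV, 6.53 and 4.85 in EpiC and 6.03 and 4.06 in ESC. Both genes were at 16.2 TPM or more in each GV library and under 1 TPM in each MII library. Fbxo16 gave −4.31 ± 0.56 (adjusted p = 0.000602) for MII against GV and 5.02 ± 0.57 (adjusted p = 0.000114) for GV against ESC, and did not pass for MII against EpiC (−1.05 ± 0.50, adjusted p = 0.0857). Fbxo17, which shares a domain with Fbxo2 and Fbxo6, gave −3.45 ± 0.56 (adjusted p = 0.00132) and 2.15 ± 0.53 (adjusted p = 0.00699) in the same comparisons. MII also lay below EpiC for Fbxo17 (−1.53 ± 0.52, adjusted p = 0.0275), a call lost without MII replicate 1 (−0.87, adjusted p = 0.200), GV replicate 1, EpiC replicate 1 or EpiC replicate 2 (adjusted p = 0.0609, 0.0741 and 0.0587). The GV against ESC call of Fbxo17 was lost without ESC replicate 2 (1.93, adjusted p = 0.0578).

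Fbxo31 (chromosome 8, 121549440 to 121578806), a factor that degrades cyclin D1 after DNA damage in human cells, was lowest in MII. Fbxo31 had 0.278 and 0.408 TPM in the MII libraries, 6.26 and 11.6 in GV, 13.5 and 16.6 in EpiC and 13.9 and 18.6 in ESC. The 2 MII libraries lay far below the other 6, whose values ran from 6.26 to 18.6 TPM. Fbxo31 gave −3.34 ± 0.48 (adjusted p = 0.000804) against GV in MII and −3.36 ± 0.48 (adjusted p = 0.000271) against EpiC, and did not pass for GV against ESC (0.09 ± 0.43, adjusted p = 0.872). Fbxo38, reported to mark the receptor PD-1 in T cells, was also lowest in MII. Fbxo38 had 3.63 and 4.63 TPM in the MII libraries, 55.5 and 31.6 in GV, 32.5 and 26.9 in EpiC and 24.4 and 24.6 in ESC. It gave −2.22 ± 0.37 (adjusted p = 0.00147) against GV in MII and −1.38 ± 0.36 (adjusted p = 0.00773) against EpiC, the second of which was lost without MII replicate 1 (−0.98, adjusted p = 0.0965). Its GV against ESC value, 1.13, was lost on log2(TPM + 1) (0.75), without GV replicate 1 (adjusted p = 0.0567) and without ESC replicate 1 (0.110) or 2 (0.0924).

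Fbxo36 had 3.0 and 3.38 TPM in the MII libraries, 24.1 and 27.9 in GV, 2.29 and 5.32 in EpiC and 6.58 and 6.88 in ESC. Fbxo46 had 1.42 and 3.35 TPM in the MII libraries, 13.6 and 34.4 in GV, 5.77 and 6.3 in EpiC and 6.45 and 5.23 in ESC. Both peaked in GV, and the 2 GV libraries of Fbxo46 lay far apart. Fbxo36 gave −1.78 ± 0.59 (adjusted p = 0.0379) for MII against GV, a call lost without any 1 of the MII, GV or ESC libraries (adjusted p between 0.0501 and 0.144), and 2.29 ± 0.60 (adjusted p = 0.00927) for GV against ESC, lost without ESC replicate 1 (adjusted p = 0.0532). On log2(TPM + 1) the MII against GV value of Fbxo36 was −2.69 and passed (adjusted p = 0.000780). Fbxo46 gave −2.19 ± 0.55 (adjusted p = 0.0115) for MII against GV, lost without GV replicate 2 (−1.42, adjusted p = 0.103) or MII replicate 1 (−1.84, adjusted p = 0.0596), and 2.39 ± 0.55 (adjusted p = 0.00526) for GV against ESC. Fbxo46 was 34.4 TPM in GV replicate 2, the library with 182 TPM of cumulus and granulosa markers, and the part of those cells in its level was not tested.

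A further set of genes was held at high levels in both oocyte stages. Fbxo34 (chromosome 14, 47450421 to 47531962), reported to act in meiotic resumption of mouse oocytes, was among the most abundant. Fbxo34 had 193 and 285 TPM in the MII libraries, 324 and 326 in GV, 17.7 and 26.3 in EpiC and 13.5 and 15.7 in ESC. Every oocyte library lay far above all cultured libraries. Fbxo34 gave 4.78 ± 0.47 (adjusted p = 5.53e-05) for GV against ESC and 4.90 ± 0.48 (adjusted p = 3.21e-05) for MII against EpiC. For MII against GV it did not pass (0.76 ± 0.41, adjusted p = 0.171), and its direction depended on the scale, since it was −0.47 on log2(TPM + 1), also not passing, and 0.97 with DESeq2, which did pass (adjusted p = 0.0358).

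Fbxo28 had 214 and 243 TPM in the MII libraries, 214 and 245 in GV, 27.7 and 22.6 in EpiC and 32.5 and 33.7 in ESC. Fbxo18 had 127 and 104 TPM in the MII libraries, 124 and 102 in GV, 27.4 and 19.4 in EpiC and 22 and 27.7 in ESC. For both, the TPM of MII and GV overlapped, and both oocyte groups stood above both cultured groups. FBXO28 ubiquitylates MYC without destroying it in human cells, and Fbxo18, also called Fbh1, is a DNA helicase of recombination. Fbxo28 gave 2.80 ± 0.33 (adjusted p = 0.000127) for GV against ESC and 4.46 ± 0.35 (adjusted p = 1.24e-05) for MII against EpiC, and Fbxo18 gave 2.67 ± 0.34 (adjusted p = 0.000205) and 3.94 ± 0.36 (adjusted p = 2.33e-05). On counts they were called higher in MII than in GV, with 1.36 ± 0.31 (adjusted p = 0.00713) for Fbxo28 and 1.29 ± 0.32 (adjusted p = 0.0114) for Fbxo18, but on log2(TPM + 1) the values were −0.0061 for Fbxo28, where the direction flips, and 0.03 for Fbxo18, and neither passed. The count call of Fbxo28 was also lost with coding transcripts alone (0.77, adjusted p = 0.0733) and without MII replicate 2 (1.17, adjusted p = 0.0505). That of Fbxo18 was lost without GV replicate 1 (1.20, adjusted p = 0.0582), GV replicate 2 (1.25, adjusted p = 0.0506) or MII replicate 1 (1.11, adjusted p = 0.0787).

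Fbxo7 had 14.5 and 12.1 TPM in the MII libraries, 40.1 and 42.4 in GV, 8.36 and 8.43 in EpiC and 8.44 and 9.59 in ESC. FBXO7 is the gene of an inherited parkinsonism in people and binds a regulator of the proteasome. GV stood highest, and MII lay between GV and the cultured cells. Fbxo7 gave 2.76 ± 0.35 (adjusted p = 0.000199) for GV against ESC and 2.21 ± 0.34 (adjusted p = 0.000426) for MII against EpiC, the second of which was 0.60 on log2(TPM + 1) and did not pass there (adjusted p = 0.0528). For MII against GV the counts gave −0.50 ± 0.33 (adjusted p = 0.263), and log2(TPM + 1) gave −1.57 and passed (adjusted p = 0.00147). Fbxo30 had 42.3 and 26.5 TPM in the MII libraries, 107 and 41.1 in GV, 32.6 and 14 in EpiC and 37.1 and 19.7 in ESC. Fbxo30, reported to act in mouse oocyte chromosome segregation, had 1 GV library at 107 TPM and the other near the highest cultured library. It gave 1.48 ± 0.53 (adjusted p = 0.0366) for GV against ESC, lost without GV replicate 1 (0.95, adjusted p = 0.163) or ESC replicate 2 (1.13, adjusted p = 0.193), with relative log expression (1.42, adjusted p = 0.0606) and on log2(TPM + 1) (1.27). MII against EpiC gave 2.06 ± 0.54 (adjusted p = 0.00802), but 0.62 on log2(TPM + 1) without passing. MII against GV did not pass on counts (0.23 ± 0.52, adjusted p = 0.763), with the sign reversed on log2(TPM + 1) (−0.97) and without GV replicate 2 (−0.29) or MII replicate 1 (−0.23).

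**Figure D3:**
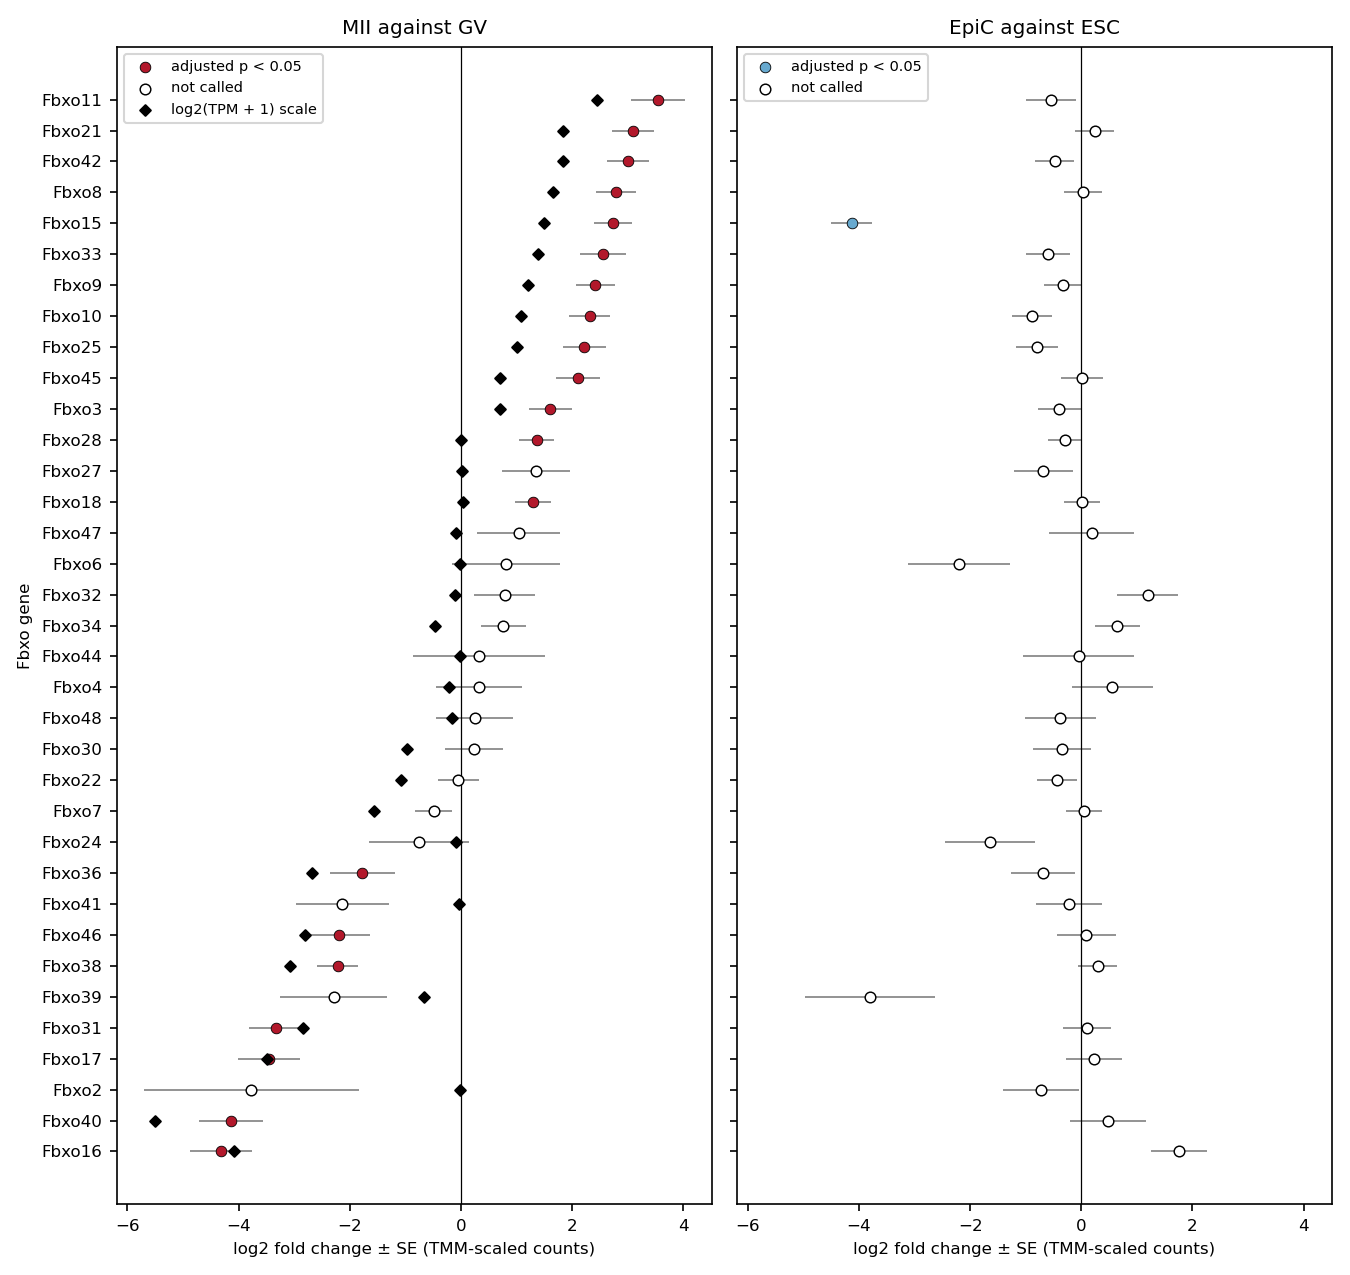
Log2 fold change of TMM-scaled counts ± SE for the 35 Fbxo genes, MII against GV on the left and EpiC against ESC on the right (filled circles, adjusted p under 0.05, and open circles, not called), with black diamonds for the MII against GV change on log2(TPM + 1). In MII against GV 13 genes were called higher and 7 lower, and in EpiC against ESC only Fbxo15 was called.

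In EpiC against ESC, 1 of the 35 genes fell and 0 rose by edgeR, while DESeq2 called 2 higher. Of all 25045 genes tested, DESeq2 called 1527 higher. By edgeR 2.63% of all genes tested were higher and 2.83% lower. The median log2 fold change in edgeR was −0.30 over the Fbxo genes and 0.03 over all genes. The gene that fell was Fbxo15 (chromosome 18, 84934782 to 84981473), a target of OCT4 and SOX2 long used as a marker of pluripotent mouse cells. Fbxo15 had 38.2 and 28.9 TPM in the MII libraries, 13.1 and 9.38 in GV, 18.5 and 18.7 in EpiC and 337 and 333 in ESC. The ESC libraries lay far above every other library, and EpiC lay between the MII and GV libraries. Fbxo15 fell by 4.13 ± 0.37 (adjusted p = 0.00151) in EpiC against ESC and by 4.59 ± 0.37 (adjusted p = 2.08e-05) in GV against ESC. It rose in MII against GV (2.74 ± 0.34, adjusted p = 0.000584) and in MII against EpiC (2.28 ± 0.34, adjusted p = 0.000335). The naive markers in the same libraries were lower in EpiC (249 and 128 TPM) than in ESC (1935 and 1545 TPM), and no part of the Fbxo15 change was tested against them. At an unadjusted p under 0.05 the counts were 1 higher and 4 lower.

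Other tools added genes in EpiC against ESC. Fbxo6 had 11.2 and 12.4 TPM in EpiC against 67.4 and 47.4 TPM in ESC, which gave a log2 fold change of −2.19 ± 0.91 (adjusted p = 0.244), and it passed on log2(TPM + 1) (−2.17, adjusted p = 0.00560), with the 2 groups alone and with no count filter. Fbxo16 had 4.28 and 2.38 TPM in EpiC against 0.966 and 0.972 TPM in ESC, which gave a log2 fold change of 1.76 ± 0.50 (adjusted p = 0.0840), and it passed with DESeq2 (adjusted p = 0.00226) and on log2(TPM + 1) (1.1, adjusted p = 0.0449). DESeq2 also called Fbxo32, the muscle-wasting ligase atrogin-1, higher in EpiC, with 0.902 and 1.09 TPM in EpiC against 0.348 and 0.547 TPM in ESC. On log2(TPM + 1) and on log2(TPM + 0.1) Fbxo24, a gene known from sperm, was lower in EpiC, with 0.178 and 0.301 TPM in EpiC against 0.865 and 0.795 TPM in ESC. The levels of Fbxo24 and Fbxo32 are near or under 1 TPM.

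Against the cultured cells, GV oocytes were higher for 19 of the 35 genes and lower for 11, and MII oocytes were higher than EpiC for 18 and lower for 11. Of all genes tested, 28.3% were higher and 31.3% lower in GV than in ESC, and 28.5% were higher and 39.6% lower in MII than in EpiC. The median log2 fold change was 1.13 for the Fbxo genes in GV against ESC (−0.51 over all genes) and 2.06 in MII against EpiC (−1.23 over all genes). These comparisons share no library, and 14 genes were higher in both, of 19 and 18, and 8 were lower in both, of 11 in each. Of all genes tested, 19.8% were higher in both and 23.9% lower in both. The balance in MII against EpiC depended on the scale. On log2(TPM + 1) Fbxo7, Fbxo25, Fbxo30 and Fbxo39 were no longer called higher. Fbxo16, Fbxo24, Fbxo32 and Fbxo45 were called lower in addition. Of all 25045 genes tested, 4703 were higher and 11450 lower in MII than in EpiC on that scale. Without ESC replicate 2 fewer of the 35 genes were called higher in GV than in ESC. Without MII replicate 1 fewer were called lower in MII than in EpiC. Fewer of all genes tested were called in these settings too.

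The genes lower in oocytes include most of a subgroup that shares a second domain, called FBA. Fbxo2, Fbxo6, Fbxo17, Fbxo27 and Fbxo44 share this domain, with which Fbxo2 and Fbxo6 bind N-linked glycans and take misfolded glycoproteins to degradation. They lie in 2 clusters on GRCm38: Fbxo6, Fbxo44 and Fbxo2 on chromosome 4 from 148145716 to 148166424, with gaps of 659 and 138 bases, and Fbxo27 and Fbxo17 on chromosome 7 from 28692849 to 28738144, with 17465 bases and no coding gene between them. Fbxo6 had 0.0937 and 0.388 TPM in the MII libraries, 0.0304 and 0.502 in GV, 11.2 and 12.4 in EpiC and 67.4 and 47.4 in ESC. Fbxo27 had 0.145 and 0.068 TPM in the MII libraries, 0.0982 and 0.0801 in GV, 6.9 and 4.92 in EpiC and 11.1 and 7.53 in ESC. Every oocyte library lay below every cultured library for both genes, and GV replicate 2, with the 182 TPM of cumulus and granulosa markers, had the highest Fbxo6 level among the oocytes. Fbxo6 gave −7.24 ± 1.16 (adjusted p = 0.000731) for GV against ESC and −4.23 ± 1.03 (adjusted p = 0.00558) for MII against EpiC, with 1 and 69 estimated counts in GV and 4 and 37 in MII. Fbxo27 gave −5.95 ± 0.68 (adjusted p = 0.000112) and −3.92 ± 0.62 (adjusted p = 0.000511), with 9 and 20 counts in GV and 11 and 14 in MII.

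Fbxo44 had 0.0538 and 0.0448 TPM in the MII libraries, 0 and 0.118 in GV, 3.13 and 1.54 in EpiC and 2.47 and 1.96 in ESC. Fbxo44 gave −4.45 ± 1.17 (adjusted p = 0.00976) for GV against ESC and −4.08 ± 1.21 (adjusted p = 0.0146) for MII against EpiC, the second lost without either MII library (adjusted p = 0.0895 and 0.0883). Fbxo2 had 0 counts in both MII libraries and 1 and 3 in GV, against 1.7 and 1.21 TPM in EpiC and 3.04 and 1.84 TPM in ESC. Taking 3 counts per library as the limit that a count of 0 allows, Fbxo2 in MII lay under 0.0427 TPM, against 1.455 TPM in EpiC. In TPM that is at least 34.1-fold lower. The bound does not hold for TMM-scaled counts, the scale of the other fold changes, on which no bound was computed. Fbxo17 differed from the other 4 in GV against ESC, with 16.2 and 20.4 TPM in GV against 6.03 and 4.06 TPM in ESC, while in MII against EpiC all 5 genes were called lower. Its neighbour Fbxo27 measured 0.0982 and 0.0801 TPM in the same GV libraries.

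Fbxo22 had 3.47 and 4.95 TPM in the MII libraries, 9.95 and 9.91 in GV, 53.2 and 37.3 in EpiC and 71.8 and 55.7 in ESC. The protein degrades histone demethylases of the KDM4 family and the repressor BACH1. The cultured cells lay above the oocytes in every library, with −2.30 ± 0.38 (adjusted p = 0.000842) for GV against ESC and −1.90 ± 0.37 (adjusted p = 0.00171) for MII against EpiC. MII against GV was near 0 on counts (−0.05 ± 0.36, adjusted p = 0.961), and Fbxo22 was lower in MII on log2(TPM + 1) (−1.08, adjusted p = 0.0229). Fbxo45 had 4.51 and 3.21 TPM in the MII libraries, 2.55 and 1.46 in GV, 12.3 and 10.5 in EpiC and 12.5 and 10.4 in ESC. Fbxo45, which works with the ligase MYCBP2 at synapses rather than in a standard SCF, was lower in GV than in ESC (−2.21 ± 0.40, adjusted p = 0.00138). It was higher in MII than in GV on counts (2.11 ± 0.40, adjusted p = 0.00261), a call lost on log2(TPM + 1) (0.70, adjusted p = 0.0891). MII against EpiC did not pass on counts (−0.11 ± 0.38, adjusted p = 0.803), but Fbxo45 was lower in MII on log2(TPM + 1) (−1.35, adjusted p = 0.00470).

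The remaining genes were scarce. A total of 9 genes, Fbxo2, Fbxo4, Fbxo24, Fbxo32, Fbxo39, Fbxo41, Fbxo44, Fbxo47 and Fbxo48, stayed under a mean of 5 TPM in every group, with at most 4.70 TPM in any library. All 35 genes passed the count filter. Fbxo2, Fbxo4, Fbxo24, Fbxo41, Fbxo44 and Fbxo48 ran from 0 to 0.477 TPM in the oocyte libraries and from 0.178 to 3.13 TPM in the cultured libraries. Fbxo4 had 0.162 and 0.117 TPM in the MII libraries, 0.19 and 0.477 in GV, 2.57 and 3.01 in EpiC and 1.36 and 2.77 in ESC. Fbxo4, which binds cyclin D1 and, in human cells, the telomere protein TRF1, gave −2.46 for GV against ESC and −2.70 for MII against EpiC. The first was lost without GV replicate 1 (adjusted p = 0.183) or ESC replicate 2 (0.0942), and the second without either MII library (0.0760 and 0.107). Fbxo47 had 3.67 and 2.3 TPM in the MII libraries, 4.7 and 2.05 in GV, 1.28 and 0.265 in EpiC and 0.906 and 0.527 in ESC. Fbxo47, needed for meiosis in male mice, was higher in the oocytes, with 2.62 for GV against ESC and 3.48 for MII against EpiC, the first lost without GV replicate 1 (adjusted p = 0.0691) or ESC replicate 2 (0.106).

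Fbxo24 had 0.0118 and 0.0304 TPM in the MII libraries, 0.117 and 0.0669 in GV, 0.178 and 0.301 in EpiC and 0.865 and 0.795 in ESC. Fbxo32 had 0.344 and 0.43 TPM in the MII libraries, 0.518 and 0.49 in GV, 0.902 and 1.09 in EpiC and 0.348 and 0.547 in ESC. Fbxo24 was lower in GV than in ESC (−2.88 ± 0.86, adjusted p = 0.0169), a call lost without either GV library (adjusted p = 0.0825 and 0.120) or ESC replicate 1 (0.0509), and its locus overlaps Pcolce on the same strand. Fbxo32 passed no comparison in the main test. Fbxo48 was lower in GV than in ESC (−3.28) and in MII than in EpiC (−2.66, lost without MII replicate 1, adjusted p = 0.0832). Fbxo41, a neuronal gene with 1 and 2 counts in MII and 9 and 30 in GV, was called lower in both comparisons. Fbxo39, with 0.0456 and 0.0727 TPM in MII, 0.805 and 0.559 in GV, 0 and 0.0139 in EpiC and 0.0901 and 0.211 in ESC, was called higher in GV than in ESC and in MII than in EpiC, and lost the first call without any 1 GV or ESC library (adjusted p between 0.0761 and 0.204) and the second without EpiC replicate 1 (adjusted p = 0.0622) or MII replicate 2 (0.0736). The GV against ESC call of Fbxo39 was also lost with a length offset (adjusted p = 0.0519) and with coding transcripts alone (0.0656). Its MII against EpiC value, 3.93 on counts, was 0.07, adjusted p = 0.532, on log2(TPM + 1) and 0.57, adjusted p = 0.196, on log2(TPM + 0.1), and did not pass with the compared groups alone (adjusted p = 0.0619).

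The change of the oocytes was set against that of the cultured cells by testing the difference, MII against GV minus EpiC against ESC. A difference passed for 18 of the 35 genes, where 29.7% of all genes tested passed in either direction. It was positive for 12 genes and negative for 6. It was widest for Fbxo15 (6.87 ± 0.50, adjusted p = 0.000789), which rose in the oocyte pair and fell in the cultured pair. Fbxo11 (4.08 ± 0.65, adjusted p = 0.00275), Fbxo42 (3.48 ± 0.51, adjusted p = 0.00229) and Fbxo10 (3.20 ± 0.51, adjusted p = 0.00283) came next among the positive ones. The lowest were Fbxo16 (−6.08 ± 0.74, adjusted p = 0.00154), Fbxo40 (−4.62 ± 0.88, adjusted p = 0.00517) and Fbxo17 (−3.68 ± 0.74, adjusted p = 0.00641). For the other genes that passed with a positive difference, Fbxo33, Fbxo25, Fbxo21, Fbxo8, Fbxo9, Fbxo45, Fbxo3 and Fbxo28, it ran from 1.66 to 3.15, and Fbxo31, Fbxo38 and Fbxo46 were negative, at −3.44, −2.51 and −2.28. The calls of Fbxo3, Fbxo28 and Fbxo45 were lost on log2(TPM + 1), and those of Fbxo3, Fbxo28, Fbxo45 and Fbxo46 were lost without some single libraries, with adjusted p up to 0.203 for Fbxo46 without GV replicate 2, 0.0788 for Fbxo3 without ESC replicate 1, 0.0730 for Fbxo45 without ESC replicate 1 and 0.0711 for Fbxo28 without ESC replicate 2. The difference of Fbxo28 was also lost with coding transcripts alone (0.87, adjusted p = 0.155) and with no count filter (1.49, adjusted p = 0.0603), and that of Fbxo46 with a length offset (adjusted p = 0.0673) and relative log expression (0.0534).

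Summed levels hide which transcripts were present. For several of the abundant genes, much of the TPM went to transcripts annotated as noncoding. For Fbxo8 the short retained-intron transcript Fbxo8-005, annotated as noncoding, had 406 and 302 TPM in MII, 132 and 91.8 in GV, 18.3 and 11.3 in EpiC and 14.9 and 17.5 in ESC. The main coding transcript Fbxo8-002 had 264 and 204 TPM in MII, 87 and 60.5 in GV, 14.7 and 10.2 in EpiC and 10.9 and 12.6 in ESC. Both transcripts were highest in MII, next in GV and lowest in the cultured cells, and with coding transcripts alone Fbxo8 still rose in MII against GV (2.72, adjusted p = 0.000473). For Fbxo28 the coding share was only 9.31 and 7.71 percent in MII, 12.7 and 8.73 in GV, 20 and 23.3 in EpiC and 18.3 and 17.9 in ESC. Its coding transcript Fbxo28-001 had 19.9 and 18.8 TPM in MII, 27.1 and 21.4 in GV, 5.55 and 5.26 in EpiC and 5.93 and 6.03 in ESC, and every oocyte library lay above every cultured one.

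In GV, Fbxo40 was split between the coding transcript Fbxo40-001 with 23.8 and 15.3 TPM, the short processed transcript Fbxo40-004 with 60.5 and 60.6 TPM and the retained-intron transcript Fbxo40-002 with 19 and 24.6 TPM. With coding transcripts alone, Fbxo40 was still lower in MII than in GV (−3.99, adjusted p = 0.000524). The coding share of Fbxo22 was 35.7 and 12 percent in MII and 21.1 and 39.7 in GV, against 95.6 and 92.1 in EpiC and 79.1 and 95.2 in ESC. Both oocyte groups lay below both cultured groups in that share, and the coding-only log2 fold changes were −3.91 for GV against ESC and −4.16 for MII against EpiC. The deposited tables give no error for the split of reads between transcripts of a gene.

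**Figure D4:**
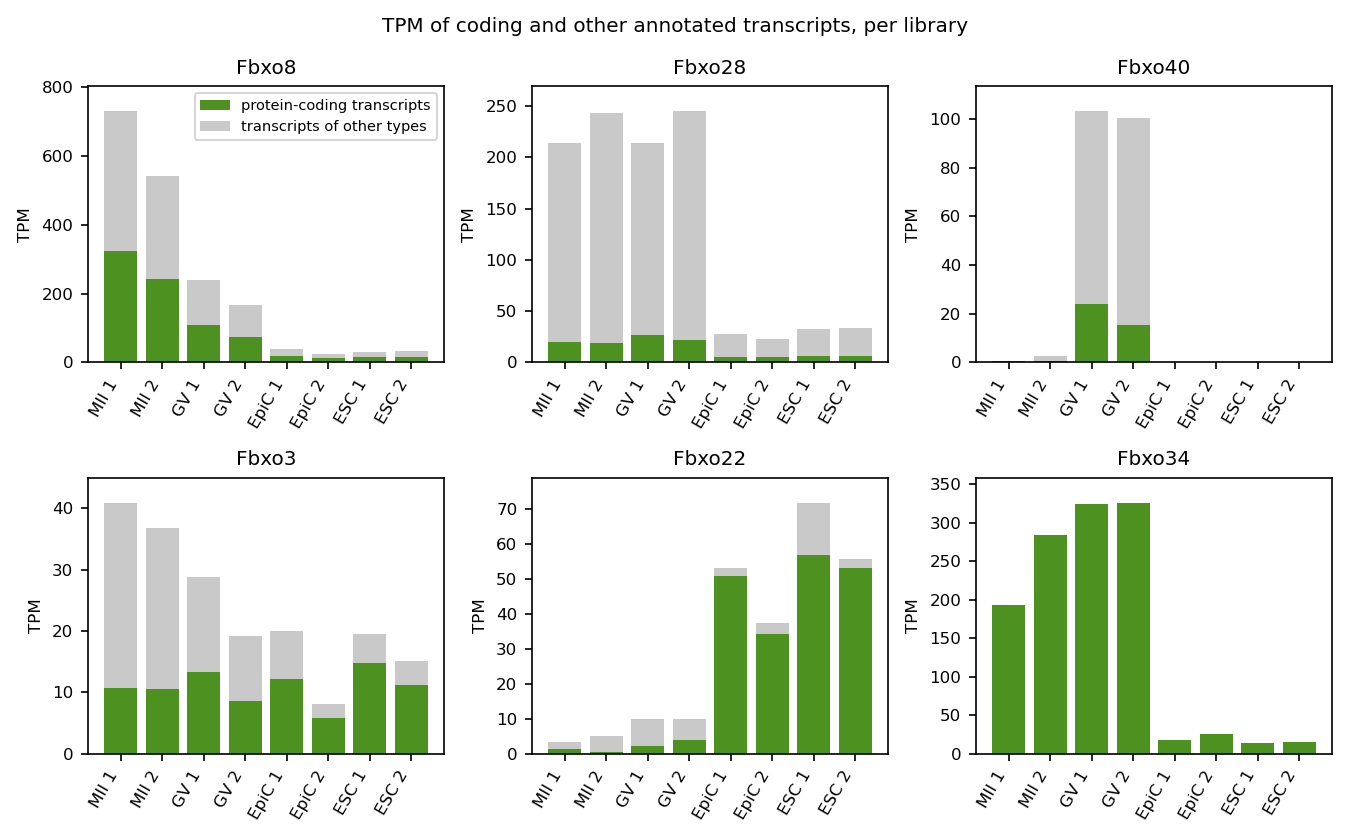
TPM per library of transcripts annotated as protein-coding (green) and of other types (grey) for 6 Fbxo genes, with libraries in the order MII, GV, EpiC, ESC and a TPM axis for each gene. Fbxo28 is mostly of other types in every library, Fbxo40 in GV and Fbxo22 in the oocytes, and Fbxo34 is coding throughout.

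Transcript usage, the split of a gene's counts over its transcripts, was tested for the 25 Fbxo genes with enough transcripts. It passed for 6 of 25 in GV against ESC (26.8% of all genes tested) and for 6 of 25 in MII against EpiC (31.2%). It passed for 0 in MII against GV (5.99%) and 0 in EpiC against ESC (0.092%), where 2 and 1 genes had an unadjusted p under 0.05 in edgeR's diffSpliceDGE, the one tool run for usage. The genes of GV against ESC were Fbxo3, Fbxo7, Fbxo8, Fbxo9, Fbxo18 and Fbxo25, and those of MII against EpiC were Fbxo3, Fbxo8, Fbxo11, Fbxo18, Fbxo25 and Fbxo42. Fewer of the 25 genes passed in either of these comparisons when some single libraries were left out. Usage calls over all genes tested were also fewer with any library of the compared groups left out. The leading transcript differed between the groups compared only for Fbxo3 in GV against ESC (adjusted p = 0.0383). There Fbxo3-005, a processed transcript without a coding frame, had 15.4 and 10.6 TPM in GV against 4.64 and 3.8 TPM in ESC, and the coding Fbxo3-001 had 12.8 and 8.04 TPM in GV against 6.59 and 5.97 TPM in ESC. Fbxo3-002, also coding, had 0.458 and 0.523 TPM in GV against 7.31 and 4.69 TPM in ESC.

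Most F-box proteins act through the SCF complex and its regulators, and a list of 36 genes for SCF subunits, NEDD8 attachment and removal, the COP9 signalosome and ubiquitin-carrying enzymes was examined, of which 35 were found. In MII against GV, 15 (42.9%) rose and 13 (37.1%) fell, where 17.4% of all genes tested were higher and 22.2% lower, and the median log2 fold change was 0.74 (−0.53 over all genes). In GV against ESC 18 (51.4%) rose and 5 (14.3%) fell, against 28.3% and 31.3% of all genes, at a median of 0.93 (−0.51 over all genes). In MII against EpiC 18 (51.4%) rose and 12 (34.3%) fell, against 28.5% and 39.6% of all genes, at a median of 1.02 (−1.23 over all genes), so the share that fell was near that of all genes. In EpiC against ESC 0 were called, by edgeR or by DESeq2, with 0 higher and 2 lower at an unadjusted p under 0.05. On log2(TPM + 1), 6 were higher and 14 lower in MII than in GV. Of all 25045 genes tested, 2408 were higher and 8164 lower on that scale.

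The core subunits differed in direction between MII and GV. Cul1 had 2334 and 1984 TPM in MII, 1031 and 490.4 in GV, 160.1 and 81.4 in EpiC and 112 and 82.4 in ESC. Cul1, the scaffold of the complex, rose by 2.76 ± 0.53 (adjusted p = 0.00293) in MII against GV, 3.29 ± 0.54 (adjusted p = 0.000856) in GV against ESC and 5.78 ± 0.61 (adjusted p = 4.91e-05) in MII against EpiC. Skp1a had 461 and 420.4 TPM in MII, 3224 and 2208 in GV, 361 and 164 in EpiC and 346 and 188 in ESC. Skp1a, the adaptor that holds the F-box, was lower in MII than in GV (−1.44 ± 0.47, adjusted p = 0.0356) and higher in GV than in ESC (3.77 ± 0.51, adjusted p = 0.000301). Whether Skp1a shares reads with similar sequences elsewhere was not examined. Rbx1 had 107 and 74.3 TPM in MII, 94.7 and 87.7 in GV, 86.2 and 50.5 in EpiC and 79.3 and 54.3 in ESC. Rbx1, the RING subunit, overlapped between MII and GV in TPM and gave 1.14 ± 0.34 (adjusted p = 0.0255) on counts, a direction that flips on log2(TPM + 1) (−0.03, not called). The groups of Cul1 did not overlap between MII and GV, nor did those of Skp1a.

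Of the other genes, the largest rises in MII against GV were Ube2d2a (3.42 ± 0.40, adjusted p = 0.000545), Uba3 (3.37 ± 0.43, adjusted p = 0.000586) and Arih1 (3.28 ± 0.49, adjusted p = 0.000897). Ube2d2a carries ubiquitin to the substrate, and Uba3 is part of the enzyme that activates NEDD8. ARIH1 adds the first ubiquitin to substrates of ligases with a neddylated cullin. The largest falls were Cops6 (−3.91 ± 0.52, adjusted p = 0.000660), a subunit of the COP9 signalosome that removes NEDD8, Ube2m (−3.21 ± 0.48, adjusted p = 0.000933), which hands NEDD8 to cullins, and Glmn (−3.11 ± 0.65, adjusted p = 0.00455), which binds RBX1. Cops6 had 2.59 and 4.81 TPM in MII, 127 and 127 in GV, 159 and 68.2 in EpiC and 194 and 112 in ESC. Ube2m had 2.76 and 5.5 TPM in MII, 77.3 and 92.5 in GV, 183 and 92.1 in EpiC and 181 and 146 in ESC. All 6 of these genes kept their direction and call on log2(TPM + 1). In GV against ESC the highest were Senp8 (4.29), Skp1a and Dcun1d1 (3.48), and the lowest Cand2 (−4.89), Rnf7 (−2.90) and Dcun1d3 (−2.0). In MII against EpiC the highest were Cul1, Senp8 (5.47) and Arih1 (5.05), and the lowest Cand2 (−8.55), Ube2m (−3.70) and Cops6 (−3.37).

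**Figure D5:**
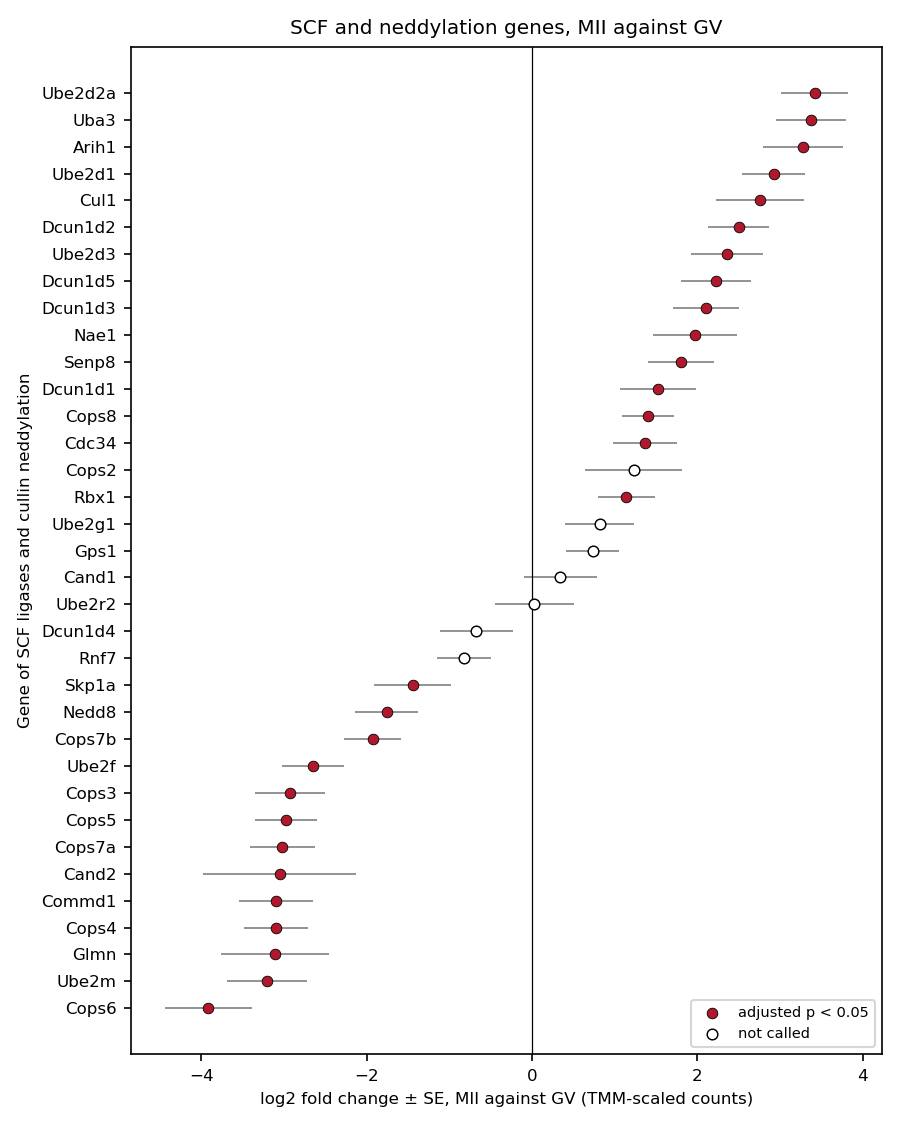
Log2 fold change of TMM-scaled counts ± SE, MII against GV, for the 35 genes found of the SCF and neddylation list (filled, adjusted p under 0.05, and open, not called). Ube2d2a, Uba3, Arih1 and Cul1 lie to the right, and Cops6, Ube2m and Glmn to the left.

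Some of the genes share their locus. Of the 35 genes, 12 overlap an annotated gene on the opposite strand (for example Fbxo15 with Timm21, Fbxo22 with Nrg4, and Fbxo34 with the antisense gene Gm35166), and whether the authors' counting used the strand is not given. The overlap is of whole loci, and whether exons overlap was not examined.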

How the data were processed

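RNA of MII, GV, EpiC and ESC was sequenced in 2 libraries each, as stranded paired-end TruSeq libraries per the labels' protocols. The authors deposited estimated counts and TPM for 117667 transcripts per library, made with kallisto 0.43 on mm10 per the submitters' processing notes. Positions are from GENCODE M21 (GRCm38).

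Estimated counts and TPM were summed per gene. Gene counts were rounded, filtered with filterByExpr, scaled by TMM and tested in edgeR 4.0.16 (R 4.3.3) with a quasi-likelihood fit over all 8 libraries (4 residual degrees of freedom) and Benjamini-Hochberg adjustment over 25045 genes. TMM factors were 0.422 and 0.405 in MII and 1.07 to 1.58 elsewhere. Transcript usage was tested with diffSpliceDGE over 11953 genes. The SE is the log2 fold change divided by the root of F, and is approximate. Scripts were tested on simulated data. Alternatives were DESeq2 1.42.0, limma 3.58.1 on log2(TPM + 1) and log2(TPM + 0.1), relative log expression, a length offset, no count filter, coding transcripts alone, the compared groups alone, a replicate block, for usage a minimum of 10 counts in 2 libraries, and each library left out, 17 in all for counts and 12 for usage.

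The genes and lists were chosen with earlier results of these data known. All 35 genes may be named, and full statistics go first, in each comparison, to the 8 highest and 8 lowest log2 fold changes among genes that passed with a mean of at least 5 TPM in a compared group.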

Additional observations from a re-analysis of the deposited data

Results flagged for a closer look

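The log2 fold change of MII against GV differed from that of EpiC against ESC for 18 of the 35 Fbxo genes, by edgeR's quasi-likelihood test of the difference with adjusted p under 0.05. The difference was positive for Fbxo15 (6.87), Fbxo11 (4.08), Fbxo42 (3.48), Fbxo10 (3.20), Fbxo33 (3.15), Fbxo25 (3.01), Fbxo21 (2.85), Fbxo8 (2.76), Fbxo9 (2.75), Fbxo45 (2.09), Fbxo3 (2.00) and Fbxo28 (1.66). It was negative for Fbxo16 (−6.08), Fbxo40 (−4.62), Fbxo17 (−3.68), Fbxo31 (−3.44), Fbxo38 (−2.51) and Fbxo46 (−2.28). Fbxo15 was the one gene of these that also passed in EpiC against ESC, where it was lower. With 2 libraries a group, single samples could not be set against the rest of their group.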

How the results depend on the processing

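Of 98 calls on Fbxo genes over the comparisons, 67 held under every alternative: 14 of 20 in MII against GV, 1 of 1 in EpiC against ESC, 18 of 30 in GV against ESC, 20 of 29 in MII against EpiC and 14 of 18 for the difference. In EpiC against ESC the count of higher genes was 2 with DESeq2 and 1 on log2(TPM + 1), and the count of lower genes was 2 with the compared groups alone, 2 on log2(TPM + 0.1), 3 on log2(TPM + 1) and 2 with no count filter. Of all 25045 genes tested, 1527 were higher with DESeq2 and 1287 on log2(TPM + 1). Lower were 542 with the compared groups alone, 1279 on log2(TPM + 0.1) and 1538 on log2(TPM + 1). With no count filter 1277 of 37263 genes were lower. The SCF genes higher in MII than in GV were 6 on log2(TPM + 1) and 6 on log2(TPM + 0.1). Of all 25045 genes tested, 4357 were higher on counts, 2408 on log2(TPM + 1) and 2275 on log2(TPM + 0.1). Transcript usage passed for 1 gene in MII against GV with the replicate block and for 3 in MII against EpiC with the compared groups alone. Of all 11953 genes tested for usage, 869 and 3025 passed in those settings. With single libraries left out, the genes higher in GV than in ESC ran from 10 to 20, those lower in MII than in EpiC from 6 to 11, and usage calls from 0 to 1 in MII against GV, 0 to 6 in GV against ESC and 1 to 6 in MII against EpiC.

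For MII against GV some log2 fold changes turned in sign, none of them passing the test after the turn. Fbxo28 was −0.0062 on log2(TPM + 0.1) and −0.0061 on log2(TPM + 1), and Fbxo34 was −0.47 on both. Fbxo30 was −0.98 on log2(TPM + 0.1), −0.97 on log2(TPM + 1), −0.29 without GV replicate 2 and −0.23 without MII replicate 1, against 0.93 without GV replicate 1. Fbxo22 was 0.16 with DESeq2 and 0.16 with relative log expression, 0.02 without GV replicate 2 and 0.10 without MII replicate 1. From counts to log2(TPM + 1), the log2 fold change of a gene shifted by a median over all genes of −0.61 in MII against GV. That median shift was −0.66 in MII against EpiC and −0.19 in GV against ESC. On log2(TPM + 0.1) the median shifts were −1.02, −1.19 and −0.27 in the same order. The cause of the other changes was not tested.

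The replicate numbers were not taken as pairs: deviations of same-numbered libraries correlated at 0.31 for MII with GV and 0.71 for EpiC with ESC, and at −0.02 to 0.01 for the other 4 pairs of groups. With the replicate block 13 genes were higher and 7 lower in MII against GV, 0 and 1 in EpiC against ESC, 19 and 11 in GV against ESC and 19 and 11 in MII against EpiC, and 19 passed for the difference. Fbxo2, Fbxo6, Fbxo39, Fbxo40, Fbxo41 and Fbxo44 rest on few counts in some groups, so their fitted fold changes depend on the prior count.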
